A study of Mus musculus with 6 samples.

Results

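The genes described here are 9 integrin subunits of T cells and Icam1, the surface ligand of the main T cell integrin. There are 5 α subunits (Itgal, Itga4, Itgae, Itgav and Itga6) and 4 β subunits (Itgb2, Itgb1, Itgb7 and Itgb3). They were chosen by symbol and not by their values, as the rows of the gene and transcript tables whose Ensembl identifier, without its version, belongs to one of the 10 symbols. They make up 10 of 52550 genes and 45 of 131146 transcripts in the tables. All 10 genes were measured in every sample and passed the filter on low counts.

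RNA was sequenced from wild-type (WT) splenic CD3+ T cells of the mouse, cultured for 24 h with anti-CD3/CD28 activators, which engage the T cell receptor (TCR) and its co-stimulatory receptor. In 3 samples the cells had the activators alone (TCR alone), and in the other 3 samples a compound at 100 ng/ml was added (TCR+DMGV). The labels name it DMGV (dimethylguanidino valeric acid), a metabolite of methylated arginines, whereas the text of the study calls the addition in this experiment LNY1. In the study, LNY1 is the factor purified from medium of mouse embryonic fibroblasts. The study equates it with asymmetric and symmetric dimethylarginine, from which cells make DMGV. Which compound was added cannot be told here, so the group is named as labelled. The samples are labelled as biological replicates, and the labels do not say whether they came from separate mice, so the p-values measure the spread between these samples. No unstimulated sample was analysed here, so the levels are those of activated cells at 1 time point. The cells are a mixture of CD4 and CD8 T cells, and in bulk RNA fewer cells of a type and less RNA per cell cannot be told apart.

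Integrins are surface receptors made of an α and a β chain. On T cells they switch from a bent, weakly binding form to an extended form when the TCR or a chemokine receptor signals through RAP1, talin and kindlin to the cytoplasmic tails, which is called inside-out activation. LFA-1 (Itgal with Itgb2) binds ICAM-1 and holds the T cell to the antigen-presenting cell. The α4 chain binds VCAM-1 and fibronectin when paired with β1, and the gut addressin MAdCAM-1 when paired with β7. The αE chain pairs with β7 and binds E-cadherin on epithelium. The αV chain with β1, β3 or β8 binds RGD-containing ligands such as vitronectin and latent TGF-β, and the α6 chain with β1 binds laminin.

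The counts summed to between 37758725 and 43718867 per sample. In a principal component analysis of all tested genes, TCR alone replicate 3 and TCR+DMGV replicate 1 stood apart from the other 4 samples on the first component (32.2% of the variance), with scores of 42.1 and 42.9 against -34.9 to -10.5. All 13 T cell markers were detected. Their summed level was 3845 to 4101 CPM (counts divided by the TMM-adjusted library size and brought to one common total) in TCR alone and 4094 to 4301 CPM in TCR+DMGV. T cell markers stood far above every other list in each sample. The log2 fold change of TCR+DMGV over TCR alone was above 0 for 12 of the 13, against 50.6% of all genes tested. For 3 of the 13 the groups did not overlap, all higher in TCR+DMGV, against 8.86% of all genes tested in either direction. None of the 13 had an unadjusted p under 0.05 in edgeR's test. The summed markers of B cells (9 of 10 detected, Fcrla at 0) were 11.1 to 13.8 CPM and 12.4 to 13.5 CPM in the respective groups. All 11 neutrophil markers had 0 counts. The platelet and megakaryocyte list, whose cells are rich in Itgb3 and Itga2b, summed to 0.632 to 0.701 CPM and 0.656 to 0.989 CPM, with Gp6, Treml1 and Clec1b at 0. Monocyte and macrophage markers (9 of 12 detected, with Cd14, C1qc and Mrc1 at 0) summed to 9.07 to 12.8 CPM and 9.01 to 11.4 CPM. Dendritic cell markers (5 of 8 detected, with Clec9a, Siglech and Cd209a at 0) summed to 9.26 to 10.6 CPM and 9.12 to 9.75 CPM, NK cell markers (8 of 8) to 8.21 to 10.8 CPM and 9.52 to 11.4 CPM, and stromal and endothelial markers (6 of 10, with Col3a1, Dcn, Cdh5 and Emcn at 0) to 33.2 to 38.1 CPM and 35.7 to 37.4 CPM. The 1 list whose summed level did not overlap was that of erythroid cells (6 of 8 detected, Epb42 among those at 0), at 4.01 to 5.37 CPM in TCR alone against 2.36 to 3.88 CPM in TCR+DMGV. The part of these cells in the integrin values was not tested.

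LFA-1 subunits and Itgb1 held the highest levels per length. In gene FPKM (fragments scaled to the length of all exons of a gene and to the fragments of the sample), the mean over the 6 samples was 77.4 ± 3.65 for Itgb2, 50.4 ± 3.66 for Itgal, 49.0 ± 6.04 for Itgb1 and 25.9 ± 2.51 for Itgb7 (SD, n = 6). Icam1 had 19.0 ± 1.14, Itga6 6.83 ± 0.50, Itgb3 3.81 ± 0.34, Itga4 3.69 ± 0.86 and Itgav 3.68 ± 0.76 gene FPKM, and Itgae came last with 0.61 ± 0.13. Itgal and Itgb1 did not differ beyond their spread (Itgal was the higher in 4 of 6 samples), nor did Itgb3, Itga4 and Itgav, whose ranges overlapped. Each other step in the order held in 6 of 6 samples without overlap. The α4, αV and α6 chains lay below Itgb1, and α4 and αE below Itgb7, in every sample.

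A gene FPKM divides by the union of all annotated exons, so it understates genes with long exons that these cells did not use. The summed FPKM of the transcripts divides by the transcripts' own lengths. It came to 14.6 ± 0.93 for Itga6, 32.8 ± 1.97 for Icam1, 71.0 ± 4.82 for Itgal, 7.70 ± 1.78 for Itgav and 5.54 ± 1.23 FPKM for Itga4 (SD, n = 6). On this scale Icam1 (29.4 to 35.2 FPKM) stood above Itgb7 (24.4 to 30.8 FPKM) in 6 of 6 samples although the ranges overlapped. Itgb3 (3.52 to 4.36 FPKM) came below Itgav in each sample and below Itga4 in 5 of 6 samples, with ranges that overlapped for Itga4. Short transcripts can raise such a sum from few counts: Itgav-206 (688 bases) added 4.80 FPKM from 163 counts in TCR+DMGV replicate 1. Between the main transcripts alone, Itgb3-201 exceeded Itgav-201 in TCR alone replicate 3 (4.26 against 3.98 FPKM), and Itgav-201 was the higher in the other samples. Itgb2 remained the highest and Itgae the lowest member on both scales.

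**Figure D1:**
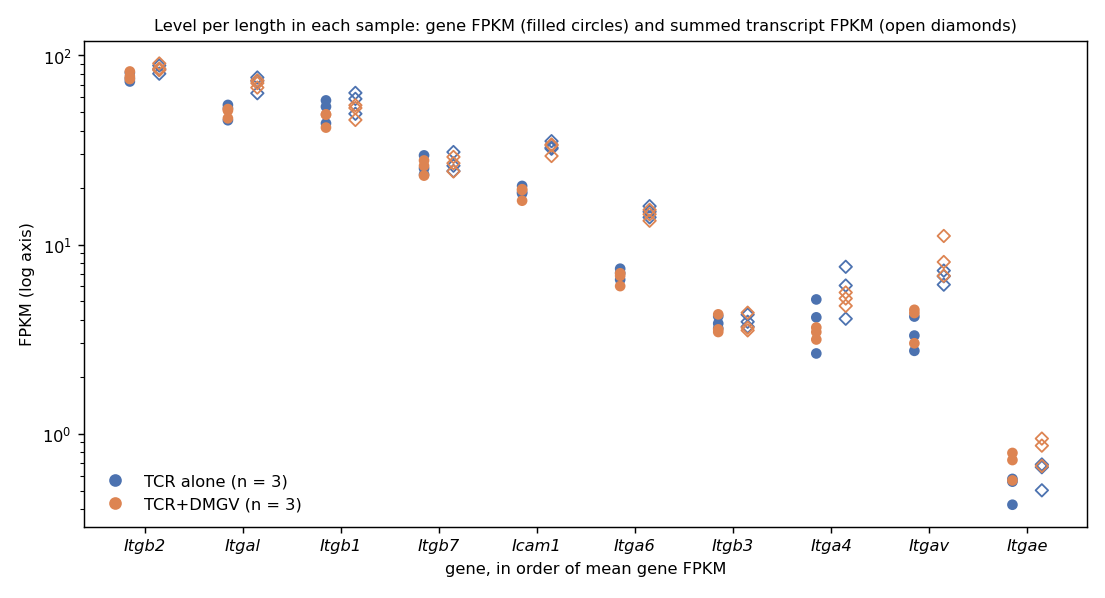
Level of each gene per length in each of the 6 samples, as gene FPKM (filled circles) and as the summed FPKM of its transcripts (open diamonds), on a log axis, with TCR alone in blue and TCR+DMGV in orange. Itgb2 lies highest and Itgae lowest on both scales, and the open symbols of Itgal, Icam1, Itga6, Itga4 and Itgav lie well above their filled ones.

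Itgal (ENSMUSG00000030830.18) encodes the αL chain of LFA-1. In GENCODE M21 (GRCm38) it lies on the forward strand of chromosome 7 from 127296260 to 127335138. Its level was 401, 342 and 379 CPM in TCR alone replicates 1 to 3 and 377, 384 and 351 CPM in TCR+DMGV replicates 1 to 3. The highest and the lowest sample were both TCR alone, and the groups overlapped. The log2 fold change of TCR+DMGV over TCR alone was -0.01 (standard error 0.08, 95% interval -0.21 to 0.18).

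Itgal was the member with the most even split between transcripts, which is why its coding ends are shown. Itgal-201 took 55.2, 54.3 and 56.7% of the gene's transcript counts in TCR alone against 49.1, 55.7 and 38.9% in TCR+DMGV. Itgal-204 took 28.6, 35.4 and 27.5% in TCR alone and 30.1, 27.2 and 31.8% in TCR+DMGV. The transcripts are annotated as coding, with 31 and 30 exons, and they part at the end of the exon before the tail. Itgal-201 is spliced to a last exon that encodes the GFFKR motif, the membrane-proximal sequence that clasps the tail of the β chain in the resting integrin. Itgal-204 reads on past the splice site and holds no codons of that motif in its frame. The last coding pieces, without the stop codon, are printed 5′ to 3′ from the GENCODE M21 transcript sequences, with the codons of GFFKR in capitals. The first is chr7:127333452-127333607 and the second chr7:127330240-127330515 (GRCm38, forward strand), and they share their first 2 bases.
Itgal-201 coding end: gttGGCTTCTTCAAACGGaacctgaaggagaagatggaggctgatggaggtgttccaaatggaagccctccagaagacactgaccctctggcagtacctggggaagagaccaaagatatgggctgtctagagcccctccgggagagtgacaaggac
Itgal-204 coding end: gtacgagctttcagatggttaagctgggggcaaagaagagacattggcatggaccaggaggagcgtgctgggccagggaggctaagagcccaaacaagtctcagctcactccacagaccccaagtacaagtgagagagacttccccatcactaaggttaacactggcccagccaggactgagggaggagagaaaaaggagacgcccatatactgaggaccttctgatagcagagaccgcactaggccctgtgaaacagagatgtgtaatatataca

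Itgal-201 had 8395, 7574 and 8885 counts in TCR alone against 8236, 9198 and 5411 counts in TCR+DMGV, with a log2 fold change of -0.21 (standard error 0.18, 95% interval -0.67 to 0.24). TCR+DMGV replicate 3 alone was low, and the estimate was -0.061 without it and -0.38 without TCR+DMGV replicate 2. Itgal-204 had 4346, 4934 and 4316 counts against 5055, 4490 and 4430 counts, a log2 fold change of -0.04. The transcripts also differ by 3 bases at the end of 1 shared exon (90 bases long in Itgal-201 and 87 in Itgal-204). Most of their length is shared, and the split of reads between them was made by the authors' software.

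A further transcript, Itgal-203 (coding, 21 exons), was singled out after its values were seen. It held 7.54, 0 and 4.51% of the gene's transcript counts in TCR alone against 12.0, 8.72 and 17.6% in TCR+DMGV, so the shares of the groups did not overlap. It had no count in TCR alone replicate 2. The log2 fold change of its counts was 1.57 with a standard error of 1.74, an unadjusted p of 0.40 and an adjusted p of 1.00 by edgeR's quasi-likelihood test over all transcripts.

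Itgb2 (ENSMUSG00000000290.13), the β2 chain shared by the leukocyte integrins, lies on chromosome 10 from 77530252 to 77565708 on the forward strand. Its level was 257, 255 and 271 CPM in TCR alone against 277, 269.9 and 263 CPM in TCR+DMGV. All 3 TCR+DMGV samples were above the mean of TCR alone, yet TCR alone replicate 3 exceeded 2 of them. With a log2 fold change of 0.05 (standard error 0.07), its 95% interval of -0.11 to 0.20 was the narrowest of the members. That interval spans 0.928 to 1.15 of the TCR alone level. Itgb2-201 held 91.6 to 96.5% of the gene's transcript counts.

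Itga4 (ENSMUSG00000027009.18), the α4 chain, lies on chromosome 2 from 79255426 to 79333123 on the forward strand. Its level was 79.8, 66.0 and 40.7 CPM in TCR alone against 48.5, 58.2 and 55.4 CPM in TCR+DMGV. TCR alone held both the highest 2 samples and the lowest one. The log2 fold change was -0.20 (standard error 0.23, 95% interval -0.74 to 0.34). Leaving out TCR alone replicate 1 gave 0.00 and leaving out TCR alone replicate 3 gave -0.43, so its size depended on which control samples were included. Cerkl overlaps Itga4 on the other strand with 74 to 352 counts per sample, below the 1686 to 3032 counts of Itga4. The counting is not stated to have used strand.

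Itgb1 (ENSMUSG00000025809.15), the β1 chain of the VLA integrins, lies on chromosome 8 from 128685654 to 128733200 on the forward strand. Its level was 244, 270.4 and 196 CPM in TCR alone against 187, 227 and 229 CPM in TCR+DMGV, with a log2 fold change of -0.14 (standard error 0.14, 95% interval -0.47 to 0.18). All 3 TCR+DMGV samples lay below the mean of TCR alone, but 2 of them lay above TCR alone replicate 3. The estimate was -0.041 without TCR alone replicate 2, -0.057 without TCR+DMGV replicate 1 and -0.26 without TCR alone replicate 3.

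The full-length Itgb1-201 took 85.5 to 97.7% of the transcript counts of Itgb1. Most of the rest went to Itgb1-202, which is annotated as a target of nonsense-mediated decay and was named after its values were seen. It had 724, 741 and 1166 counts in TCR alone against 552, 1364 and 196 counts in TCR+DMGV, a log2 fold change of -0.42 with a standard error that left its 95% interval at -2.08 to 1.25. Its share ran from 2.16% to 14.4% between samples, lowest in TCR+DMGV replicate 3. Itgb1-202 lacks 1 exon of 223 bases, which is not a multiple of 3 (remainder 1) and so shifts the reading frame. That exon, at chr8:128710253-128710475 (GRCm38, forward strand), is shown because its absence shifts the frame. The transcripts, of 3815 and 2906 bases, also differ elsewhere.
Itgb1 exon absent from Itgb1-202: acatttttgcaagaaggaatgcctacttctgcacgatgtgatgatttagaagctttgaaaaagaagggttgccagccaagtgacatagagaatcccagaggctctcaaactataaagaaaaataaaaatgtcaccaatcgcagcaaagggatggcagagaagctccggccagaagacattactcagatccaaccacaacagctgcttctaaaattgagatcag

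Itgb7 (ENSMUSG00000001281.9) encodes the β7 chain, the partner of α4 and αE, and lies on the reverse strand of chromosome 15 from 102215995 to 102231944. Its level was 77.2, 73.7 and 89.1 CPM in TCR alone against 84.2, 81.7 and 73.0 CPM in TCR+DMGV. The groups overlapped through nearly their whole ranges. The log2 fold change was -0.01 (standard error 0.10, 95% interval -0.25 to 0.24), and Itgb7-201 held at least 99.5% of the transcript counts in each sample.

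Itgae (ENSMUSG00000005947.11), the αE chain also known as CD103, lies on chromosome 11 from 73090583 to 73147446 on the forward strand. It was the least expressed member, with 82, 120 and 121 counts in TCR alone against 178, 164 and 119 counts in TCR+DMGV. Scaled, these were 2.16, 2.94 and 2.92 CPM against 3.999, 3.81 and 3.00 CPM. The lowest TCR+DMGV sample was above the highest TCR alone sample by less than 0.1 CPM, so the groups did not overlap on the CPM scale. They overlapped in gene FPKM (TCR alone replicate 3 at 0.576 and TCR+DMGV replicate 3 at 0.566) and in summed transcript FPKM (0.687 and 0.674). On the CPM scale Itgae was the 1 member of 10 for which this held, against 8.86% of all genes tested. Its log2 fold change of 0.43 (standard error 0.22, 95% interval -0.08 to 0.94) was the largest of the members in size, with an unadjusted p of 0.087 (adjusted p = 0.999, edgeR over all genes). Haspin, a protein kinase gene inside the Itgae locus on the other strand, had 995 to 1284 counts per sample, far more than Itgae. The counting is not stated to have used strand, and the overlap was read from the gene spans, not from the exons. Whether any Haspin reads were counted for Itgae was not tested.

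Itgav (ENSMUSG00000027087.11), the αV chain, lies on chromosome 2 from 83724397 to 83806916 on the forward strand. Its level was 39.6, 51.3 and 32.4 CPM in TCR alone against 51.5, 55.5 and 37.2 CPM in TCR+DMGV. TCR+DMGV replicate 3 was below TCR alone replicates 1 and 2. The log2 fold change was 0.23 (standard error 0.21, 95% interval -0.26 to 0.71). Its size fell to 0.09 without TCR alone replicate 3 and came to 0.41 without TCR alone replicate 2.

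Itgb3 (ENSMUSG00000020689.4), the β3 chain of the vitronectin receptor, lies on chromosome 11 from 104608000 to 104670476 on the forward strand. It had 25.2, 24.4 and 27.0 CPM in TCR alone against 27.8, 24.0 and 23.4 CPM in TCR+DMGV, all through the single transcript Itgb3-201. The groups overlapped, and the log2 fold change was -0.03 (standard error 0.11, 95% interval -0.27 to 0.22). Its platelet partner Itga2b had 25 to 38 counts per sample, against 927 to 1237 counts for Itgb3.

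Itga6 (ENSMUSG00000027111.15), the α6 chain of the laminin receptor, lies on chromosome 2 from 71745616 to 71858416 on the forward strand. Its level was 75.0, 67.4 and 70.1 CPM in TCR alone against 70.1, 70.4 and 62.6 CPM in TCR+DMGV. All 3 TCR+DMGV samples lay below the mean of TCR alone, within the range of TCR alone but for replicate 3. The log2 fold change was -0.06 (standard error 0.09, 95% interval -0.27 to 0.14).

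The α6 chain is known in the forms A and B, which differ in the cytoplasmic tail through an exon of 130 bases that Itga6-201 holds and Itga6-202 skips. The pieces that encode the tails are shown because they separate the forms that the shares below count. They come from chr2:71853534-71853638 for form A and chr2:71855854-71856012 for form B (GRCm38, forward strand), share their first 5 bases, and both begin with a GFFKR motif, again in capitals, after which they differ.
Itga6-201 coding end: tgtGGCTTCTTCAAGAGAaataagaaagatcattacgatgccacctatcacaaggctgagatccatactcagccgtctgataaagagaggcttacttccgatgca
Itga6-202 coding end: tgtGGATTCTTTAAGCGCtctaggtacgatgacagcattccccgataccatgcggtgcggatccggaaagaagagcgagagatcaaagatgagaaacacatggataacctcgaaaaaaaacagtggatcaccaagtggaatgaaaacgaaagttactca

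The transcript of form A took 91.3, 76.9 and 87.8% of the transcript counts of Itga6 in TCR alone and 81.7, 90.3 and 82.3% in TCR+DMGV. The transcript of form B took 7.69, 19.8 and 11.8% in TCR alone and 9.39, 9.13 and 8.66% in TCR+DMGV. Form A was the main form in 6 of 6 samples. Most of the rest went to Itga6-207 (coding, 18 exons), which was named after its values were seen and assigned to neither form here. It took 0.67, 3.1 and 0.31% in TCR alone and 8.78, 0.13 and 8.54% in TCR+DMGV. The lower shares of form A in TCR+DMGV replicates 1 and 3 are therefore not a measure of form A against form B. The counts of Itga6-202 were 219, 545 and 342 in TCR alone and 293, 277 and 215 in TCR+DMGV, and the log2 fold change of -0.57 (standard error 0.36, 95% interval -1.47 to 0.33) went to -0.21 without TCR alone replicate 2. No other sample had more than 342 counts. Itga6-201 had 2599, 2117 and 2547 counts against 2551, 2740 and 2043 counts, a log2 fold change of -0.07.

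**Figure D2:**
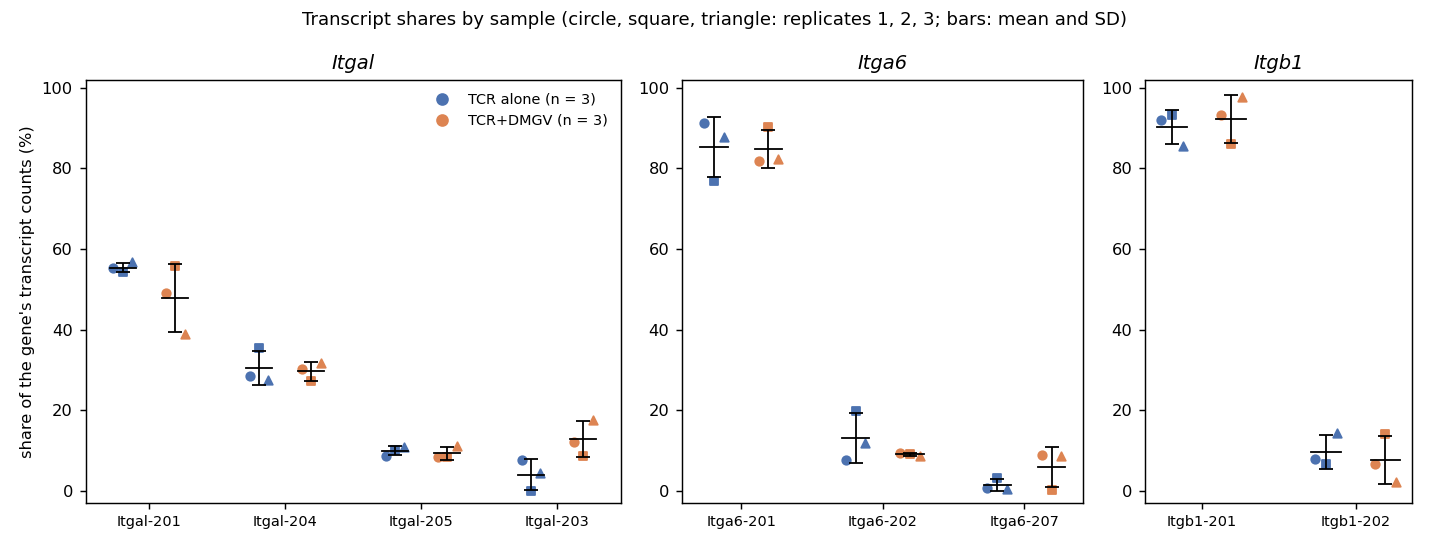
Share of the transcript counts of Itgal, Itga6 and Itgb1 held by each transcript with a mean share of at least 3%, by sample (circles, squares and triangles are replicates 1, 2 and 3 of TCR alone in blue and TCR+DMGV in orange), with the mean and SD of each group in black. Itga6-201 and Itgb1-201 lie at or above 76.9% in each sample, Itgal is divided between Itgal-201 and Itgal-204, and the shares of Itgal-203 lie at or below 7.54% in TCR alone and at or above 8.72% in TCR+DMGV.

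Icam1 (ENSMUSG00000037405.8), the LFA-1 ligand that activated T cells also carry, lies on chromosome 9 from 21015985 to 21028817 on the forward strand. It had 90.5, 94.5 and 97.7 CPM in TCR alone against 93.3, 97.6 and 85.5 CPM in TCR+DMGV. The groups overlapped, and the log2 fold change was -0.03 (standard error 0.08, 95% interval -0.23 to 0.16). An antisense gene, Gm47079, overlaps it with 274 to 409 counts per sample, against 3388 to 4204 counts of Icam1. Icam1-201 held at least 98.1% of the transcript counts.

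**Figure D3:**
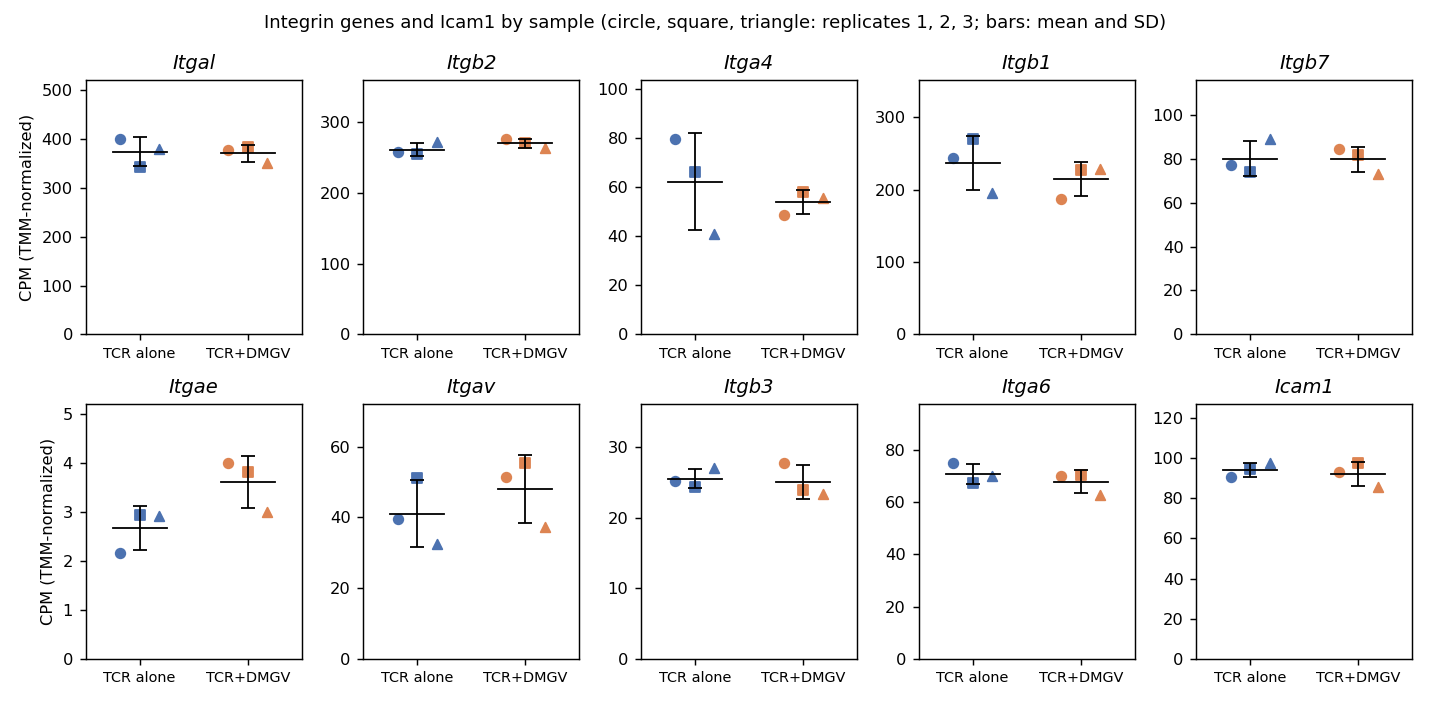
TMM-normalized CPM of the 9 integrin genes and Icam1 in each sample (circles, squares and triangles are replicates 1, 2 and 3), with the mean and SD of each group in black and each axis from 0. The groups overlap for each gene but Itgae, whose TCR+DMGV samples lie at 3.00 CPM and above and whose TCR alone samples lie at 2.94 CPM and below.

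When edgeR's quasi-likelihood fit was read at an adjusted p under 0.05, none of the 10 members passed, and none had an unadjusted p under 0.05. Among all 14786 genes tested, 2 (0.0135%) passed it and 471 (3.19%) had an unadjusted p under 0.05. DESeq2 and limma on log2(FPKM + 1) also called 0 of the 10 members and gave none an unadjusted p under 0.05. The estimate was above 0 for 3 members and below 0 for 7. The median log2 fold change of the 10 members was -0.02, and that of all tested genes was 0.00. The intervals say how large a difference could have been missed. For Itgal, Itgb2, Itgb7, Itgb3, Itga6 and Icam1 they lay within 0.3 of 0 on the log2 scale. That of Itgb1 reached -0.47, and those of Itga4, Itgav and Itgae reached -0.74, 0.71 and 0.94.

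**Figure D4:**
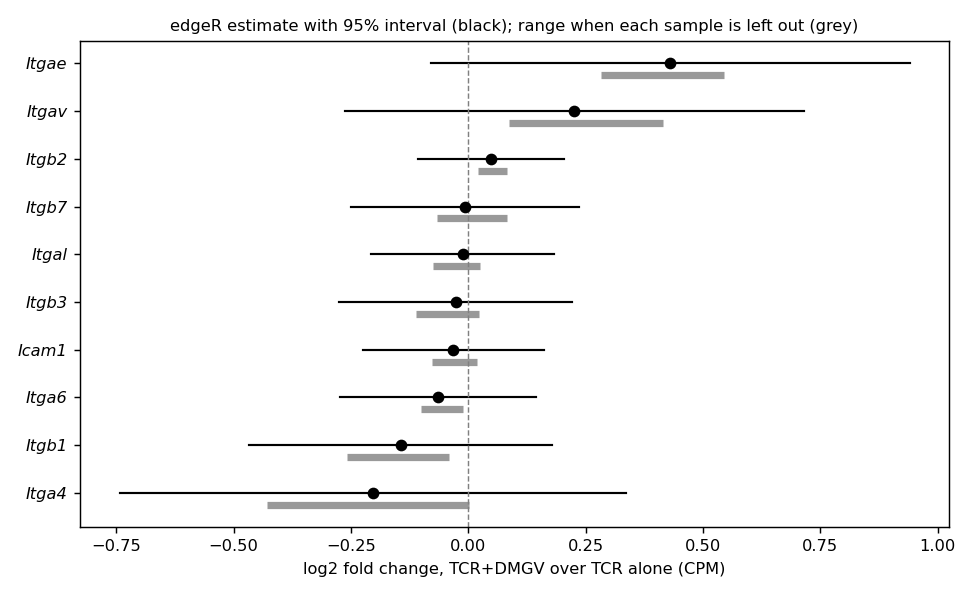
Log2 fold change of TCR+DMGV over TCR alone on the CPM scale for each member, with edgeR's 95% interval in black and, in grey, the range of the estimates when each of the 6 samples was left out in turn. Each interval includes 0, and the widest belong to Itga4, Itgae and Itgav.

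TCR alone replicate 3 and TCR+DMGV replicate 1, the samples that stood apart, had the lowest CPM of the 6 samples for Itga4 (40.7 and 48.5) and for Itgb1 (196 and 187). The same samples had the highest CPM for Itgb2 (271 and 277), Itgb3 (27.0 and 27.8) and Itgb7 (89.1 and 84.2). These are descriptions of 1 sample from each group, without a test. In a fit to the other 4 samples, the log2 fold change of Itga4 was -0.36 (unadjusted p = 0.025, adjusted p = 0.73 by edgeR over all genes), that of Itgb1 -0.17, that of Itgav 0.03 and that of Itgb7 0.037. Of these, the value of Itgb7 had the opposite sign to that in the fit of all 6 samples. No member passed the threshold there either, and 12 of 14888 genes did.

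Because an integrin reaches the surface as a pair, the RNA of partner chains was set side by side in each sample, as a ratio of gene FPKM. The Itgal level was 0.652 of the Itgb2 level on average (0.620 to 0.724 over the 6 samples). On summed transcript FPKM it was 0.831 (0.788 to 0.907), so the αL RNA was below the β2 RNA in 6 of 6 samples on either scale. Against Itgb1, the α4 chain was at 0.0748, the αV chain at 0.0759 and the α6 chain at 0.141 of its level, and Itgb7 was at 0.539. On summed transcript FPKM these were 0.102, 0.146, 0.274 and 0.508. The αE chain was at 0.0234 of Itgb7, and α4 at 0.145 (0.0268 and 0.209 on summed transcript FPKM). Itgav and Itgb3 were close to even in gene FPKM at 0.972, with samples on both sides (0.656 to 1.27). On summed transcript FPKM, which includes short Itgav transcripts, Itgav was the higher in each sample (1.44 to 2.55). Between the main transcripts alone it was the lower in TCR alone replicate 3. These are ratios of RNA and say nothing of the chains on the surface.

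With 3 samples against 3, the smallest p that an exact permutation test of a partner ratio can give is 0.1, so none of the 8 ratios could pass the threshold, and the values are given as a description. In log2 of gene FPKM, Itgal/Itgb2 averaged -0.59 ± 0.11 in TCR alone and -0.65 ± 0.05 in TCR+DMGV (SD, n = 3 each, exact two-sided permutation test, p = 0.6, adjusted over the 8 ratios p = 0.9). Itgae/Itgb7 averaged -5.66 ± 0.26 and -5.22 ± 0.12 in the respective groups (exact permutation test, p = 0.1, adjusted p = 0.8). Its groups did not overlap, whereas those of the other 7 ratios did on this scale. On summed transcript FPKM the groups of Itgav/Itgb1 did not overlap either, with a log2 difference of 0.50 (exact permutation test, unadjusted p = 0.1). The difference was 0.37 on gene FPKM, where they overlapped. The sum includes short Itgav transcripts, and between the main transcripts alone, Itgav-201 and Itgb1-201, the groups also overlapped. There TCR+DMGV replicate 3 had the lowest ratio (4.34 against 50.98 FPKM), below TCR alone replicate 1 (4.83 against 52.8 FPKM). TCR+DMGV replicates 1 and 2 had the highest ratios. Itgb7/Itgb1, the ratio of the partners that compete for α4, was -1.08, -1.30 and -0.56 in TCR alone and -0.58, -0.90 and -1.07 in TCR+DMGV. The highest values of this ratio, -0.56 and -0.58, were again those of the samples that stood apart.

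At the level of transcripts, 41 of the 45 had a count and 27 passed the filter. None passed the threshold in edgeR's test, in which 0 of 38401 transcripts (0%) did, and 1 had an unadjusted p under 0.05, against 3.22% of all transcripts. DESeq2 also called none of the member transcripts, and 1 had an unadjusted p under 0.05. That transcript in edgeR's test was Itga4-202, a processed transcript without a coding region, with 3, 1 and 10 counts in TCR alone against 18, 40 and 17 counts in TCR+DMGV. Its log2 fold change was 2.31 (standard error 0.87, unadjusted p = 0.040, adjusted p = 1.00), and it never held more than 1.60% of the counts of Itga4. The transcript of α4 that encodes the chain, Itga4-201, held at least 97.5%.

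Usage, the share of a gene's counts that a transcript takes, was tested for 26 member transcripts of 9 genes. None passed (edgeR, adjusted over 31395 transcripts, of which 0.411% did), and 1 had an unadjusted p under 0.05 against 2.33% of all. The shares of the groups did not overlap for 3 of the 26, all higher in TCR+DMGV, against 9.31% of all transcripts in either direction. These were Itga4-202, Itgal-203 and Itgb2-203, and the last never held more than 0.20% of the counts of Itgb2. For 8 of the 10 genes a single transcript held at least 91.3% of the counts on average, and the exceptions were Itgal and Itga6.

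The other genes of the integrin pathway were taken from 5 lists of 118 genes, of which 86 were tested. None passed the threshold and none had an unadjusted p under 0.05 in edgeR's test, while DESeq2 called none and gave 1 an unadjusted p under 0.05. Their median log2 fold change was -0.02.

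Among the 17 other integrin subunits, 10 were tested. Their median log2 fold change was 0.09. The most counted was Itga5, the fibronectin receptor chain that pairs with β1, at 11.7 ± 1.97 CPM in TCR alone against 13.0 ± 1.40 CPM in TCR+DMGV (SD, n = 3 each). Itga3, another partner of β1, had 4.58 ± 0.22 and 5.28 ± 1.33 CPM in the respective groups, and Itgb8, a partner of αV, had 3.17 ± 1.59 and 3.12 ± 1.01 CPM. Itgax, the αX chain best known from dendritic cells, had 3.40 ± 0.96 CPM in TCR alone against 4.35 ± 0.27 CPM in TCR+DMGV, a log2 fold change of 0.35 (standard error 0.23). Itga10, Itga2b, Itga7, Itga2, Itga9 and Itga1 had mean levels of 0.26 to 1.06 CPM. Itgam, the α chain that marks myeloid cells, had 0 to 8 counts per sample, and Itga8, Itga11 and Itgb6 had none.

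Of 28 ligands and counter-receptors, 13 were tested, with a median of -0.06. Tgfb1, whose latent form αV integrins bind, was the most counted at 169 ± 9.27 CPM in TCR alone against 161 ± 2.16 CPM in TCR+DMGV. The 2 genes of smallest p were Lamc1, a laminin γ chain, with 23.0 ± 3.61 and 18.3 ± 2.18 CPM (log2 fold change -0.32, unadjusted p = 0.068), and Spp1, osteopontin, with 12 to 42 counts per sample (unadjusted p = 0.11). The ligands of the α4 and αE integrins on other cells were near the floor, with 2 to 17 counts per sample for Vcam1, 0 to 10 for Madcam1 and 0 to 22 for Cdh1.

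Of 27 genes of inside-out activation, 24 were tested, with a median of -0.02. Tln1, talin, which binds the β tail, was the most counted at 582 ± 30.6 CPM in TCR alone against 569 ± 19.7 CPM in TCR+DMGV, a log2 fold change of -0.03 (standard error 0.07). Rassf5, the RAPL adaptor between RAP1 and the αL tail, was at 197, 198 and 191 CPM in TCR alone against at 218, 204 and 219.7 CPM in TCR+DMGV. Its groups did not overlap, yet its log2 fold change was 0.13 with an unadjusted p of 0.092. Rapgef6, an exchange factor of RAP1, had 205 ± 58.4 and 167 ± 4.52 CPM, with TCR alone replicate 1 at 272 CPM and the other 5 samples between 163 and 175 CPM.

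Of 14 inhibitors of integrins, 13 were tested, with a median of 0.05. Flna, filamin A, which competes with talin for the β tail, was the most counted at 368 ± 13.5 CPM in TCR alone against 359 ± 8.48 CPM in TCR+DMGV. Itgb1bp1 (ICAP-1), which binds the β1 tail, had 23.5, 28.4 and 26.2 CPM in TCR alone against 39.9, 31.6 and 27.8 CPM in TCR+DMGV (log2 fold change 0.35, unadjusted p = 0.056). Its groups overlapped.

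Of 32 genes of outside-in signalling and actin linkage, 26 were tested, with a median of -0.02. Lck, the SRC family kinase of T cells, was the most counted at 595 ± 43.1 CPM in TCR alone against 605 ± 19.1 CPM in TCR+DMGV. Ptk2, the focal adhesion kinase, had the smallest p in any of these lists, with 15.3, 15.8 and 11.3 CPM in TCR alone against 10.4, 10.1 and 12.2 CPM in TCR+DMGV (log2 fold change -0.38, unadjusted p = 0.055). Zap70, a kinase that acts downstream of the TCR and of LFA-1, had 313, 347 and 380.0 CPM in TCR alone against 389, 385 and 400.3 CPM in TCR+DMGV (log2 fold change 0.17, unadjusted p = 0.081). Over all 5 lists, 5 of the 86 tested genes had groups that did not overlap, against the 8.86% of all tested genes given above.

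**Figure D5:**
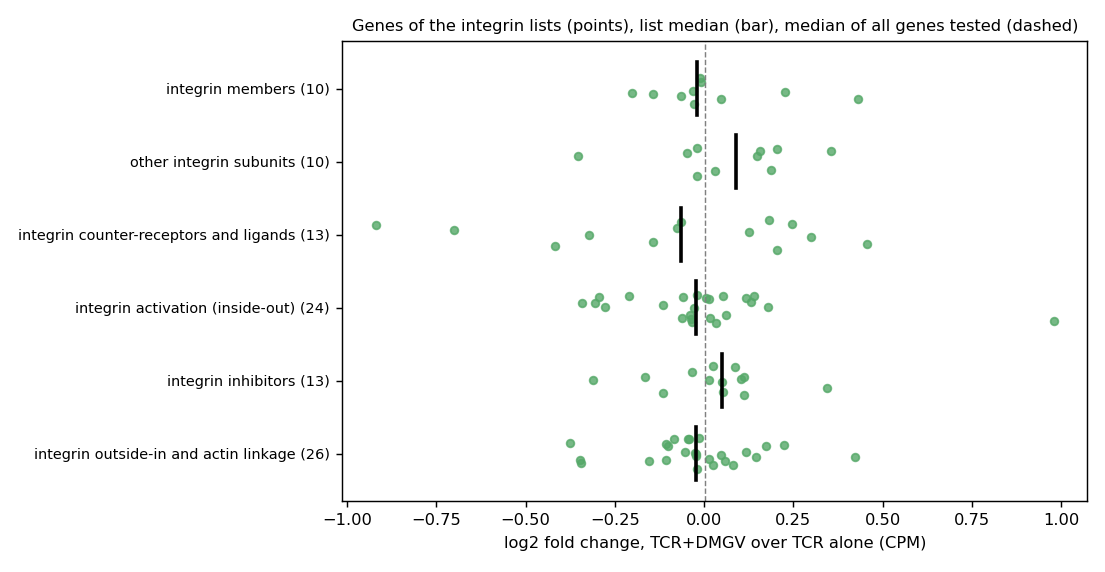
Log2 fold change of TCR+DMGV over TCR alone on the CPM scale for each tested gene of the integrin members and of the 5 pathway lists (points, spread vertically for visibility), with the number of tested genes in brackets, the median of each list as a black bar and the median of all tested genes as a dashed line. The list medians lie between -0.06 and 0.09, and no point passed the threshold.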

How the data were processed

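RNA of 6 samples of activated mouse splenic T cells, 3 TCR alone and 3 TCR+DMGV, was measured by mRNA sequencing. Per the study's methods, SOAPnuke was used to filter reads, HISAT2 2.0.4 to map them and StringTie to obtain expression. For each gene and each transcript the authors deposited an unnormalized whole-number count, and how StringTie's coverage became counts is not given in the sources used here. The deposited FPKM values are scaled to length and to the fragments of each sample. The labels' processing notes list the build mm9. With versions removed, 99.7% of gene identifiers are those of GENCODE M21 (GRCm38), and 49035 of 52550 match with their version. For 94.0% of 7516 transcripts with at least 500 counts in every sample, the counts, FPKM and M21 length agreed within 1%. M21 symbols and coordinates were therefore used. The files hold no coordinates.

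Gene counts were compared by the quasi-likelihood F-test (R 4.3.3, edgeR 4.0.16, TMM, default expression filter, two-sided, Benjamini-Hochberg adjustment over all genes tested, threshold 0.05), and transcript counts likewise. Usage was tested with edgeR's diffSpliceDGE, with transcripts in place of exons. Intervals are 95% intervals of the fit. Partner ratios of FPKM were compared by exact two-sided permutation tests with Python 3.11.15 and scipy 1.17.1. Principal components were taken of log2 CPM. All pairs of samples differed by more than counting noise. The gene fits and the usage fit were tried on simulated counts. A limit on false calls was set for edgeR and limma but not for DESeq2. For usage it was set only where all transcripts were given the same spread. Alternatives were DESeq2 1.42.0, limma 3.58.1 on log2(FPKM + 1) or log2(FPKM + 0.1), other scalings and filters, summed transcript counts, a replicate block, a term for the samples that stood apart and each sample left out. The fit to the 4 other samples was added after the data were seen.

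The members, the 5 pathway lists, the 9 marker lists and the tests were chosen with earlier results of these data known. Genes named were the members, each other integrin subunit that passed the filter and, in each other pathway list, the 2 genes of smallest p and the gene of highest mean CPM, except 1 that is not reported here. Transcripts named were those with at least 10% of their gene's counts. Other genes and transcripts named, among them the genes listed at or near 0, were chosen after their values were seen.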

Additional observations from a re-analysis of the deposited data

How the results depend on the processing

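No member, pathway gene or member transcript passed the threshold under any of the alternatives run, and no usage of a member transcript did. Among all genes, the 2 calls became 1 with library size alone and 1 with all genes with a count, 14 with DESeq2, 0 in each of the 3 limma fits, 0 with the replicate block, 12 in the 4 samples that did not stand apart, and 0 to 5 with each sample left out. At an unadjusted p under 0.05, edgeR gave 1109 of 15191 genes without TCR alone replicate 3, against 471 of 14786 with all 6 samples. In the other fits with 1 sample left out it gave 368 to 438 genes. Without TCR alone replicate 3, the 1109 genes included Itga4, no other member and 10 of 87 pathway genes. The labels do not say whether the replicate numbers pair the samples. Deviations of samples with the same number correlated at -0.15, 0.12 and -0.15. The largest correlation, 0.31, was between TCR alone replicate 3 and TCR+DMGV replicate 1. The deviations are from means of 3 samples, 1 of which stood apart in each group. The correlations therefore cannot show whether the numbers pair the samples. The replicate block left the members, pathway genes, member transcripts and their usage at 0 calls, as before.

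The estimates near 0 changed sign with single samples. Leaving out 1 sample moved the log2 fold change from -0.076 to 0.025 for Itgal, -0.43 to 0.0014 for Itga4, -0.067 to 0.083 for Itgb7, -0.11 to 0.022 for Itgb3, and -0.077 to 0.019 for Icam1. For Itgb7 it was 0.037 in the 4 samples that did not stand apart. For transcripts the ranges were -0.093 to 0.013 for Icam1-201, -0.020 to 0.051 for Itgb2-201, -0.12 to 0.014 for Itgb3-201 and -0.079 to 0.068 for Itgb7-201. The log2 difference of a partner ratio ranged from -0.10 to 0.0030 for Itgal/Itgb2, -0.16 to 0.16 for Itga4/Itgb1, -0.51 to 0.083 for Itga4/Itgb7, -0.065 to 0.20 for Itga6/Itgb1 and -0.027 to 0.34 for Itgb7/Itgb1, and Itga4/Itgb1 was 0.011 on summed transcript FPKM. The cause of these shifts was not tested. Itgb2, Itgb1, Itgae, Itgav and Itga6 kept their sign in all 18 alternatives. Leaving out 1 sample moved Itgae from 0.28 without TCR alone replicate 1 to 0.55 without TCR+DMGV replicate 3. It was 0.16 on log2(FPKM + 1) and 0.36 on log2(FPKM + 0.1), where the added constant shrinks a difference at so low a level.

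Itgae rests on 82 to 178 counts per sample. Levels of transcripts that share most exons depend on how the reads were divided between them, and this division was not examined. With 3 samples a group, the intervals of Itga4, Itgav and Itgae include log2 differences of -0.74, 0.71 and 0.94.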
